A study of Mus musculus with 8 samples.

Results

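The Hox genes encode homeodomain transcription factors that give cells their position along the body axis. In mice they lie in 4 clusters, HoxA to HoxD, on separate chromosomes. Within a cluster, genes with a low paralogue number sit at the 3′ end and act towards the head, and genes with a high number sit at the 5′ end and act towards the tail and the limb tips. Dermal fibroblasts keep this code in adult life. Hoxc13 is the known exception to the spatial rule, since it is active in the hair matrix of follicles over the whole body and regulates hair keratin genes.

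The 39 members taken here are the protein-coding rows of the count table named Hox, a cluster letter from a to d and a number, out of 56748 genes. They comprise 11 HoxA, 10 HoxB, 9 HoxC and 9 HoxD genes. In the mm39 coordinates of the table, HoxA lies on chromosome 6. HoxB spans 96085142 to 96259082 of chromosome 11, HoxC 102829538 to 102945278 of chromosome 15 and HoxD 74498654 to 74595486 of chromosome 2. A filter on low counts left 28 members for the test between genotypes, 9 of HoxA, 8 of HoxB, 6 of HoxC and 5 of HoxD.

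RNA came from whole skin of 8 untreated male mice killed at 35 weeks of age. The wild-type group (NPY +/+) held 5 mice, and the NPY-tet group held 3 siblings homozygous for a modified Npy allele (NPY tet/tet, strain B6;129S4-Npytm2Rpa/J). The labels name neither the body region from which skin was taken nor the cells in which the allele is active. The title of the series ties an excess of the peptide to inflamed and fibrotic skin. Each library is 1 mouse. Npy had 5 to 15 counts in wild-type and 10394 to 11864 counts in NPY-tet libraries. Libraries held 31370433 to 47495565 counts, of which 6749 to 9185 fell on Hox genes. The share of counts on ribosomal RNA genes was 6.44% to 8.07% for 5 libraries (wild-type replicates 1, 2, 3, 5 and NPY-tet replicate 1). It was 0.0388% to 0.0754% for the remaining 3 (wild-type replicate 4, NPY-tet replicates 2, 3). Defining markers of keratinocytes, fibroblasts, hair, fat, muscle and pigment cells all passed the filter on low counts.

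Hox transcripts were highest at the middle paralogue numbers and, with Hoxc13 set aside, fell steeply towards the 5′ end of every cluster. To show this edge, the 250 bases before the RefSeq start of 4 HoxD genes are printed, which span the step from the highest member to members with no counts. The sequences are from build GRCm38.p6, plus strand, 5′ to 3′, with each CpG in capitals. They lie at chr2:74704365-74704614 for Hoxd8, chr2:74697513-74697762 for Hoxd9, chr2:74691641-74691890 for Hoxd10 and chr2:74674763-74675012 for Hoxd12.
Hoxd8: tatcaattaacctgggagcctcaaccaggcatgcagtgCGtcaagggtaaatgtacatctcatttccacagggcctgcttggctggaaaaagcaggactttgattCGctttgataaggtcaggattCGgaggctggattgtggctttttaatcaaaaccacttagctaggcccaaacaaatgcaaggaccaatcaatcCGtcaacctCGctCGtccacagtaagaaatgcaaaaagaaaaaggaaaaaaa
Hoxd9: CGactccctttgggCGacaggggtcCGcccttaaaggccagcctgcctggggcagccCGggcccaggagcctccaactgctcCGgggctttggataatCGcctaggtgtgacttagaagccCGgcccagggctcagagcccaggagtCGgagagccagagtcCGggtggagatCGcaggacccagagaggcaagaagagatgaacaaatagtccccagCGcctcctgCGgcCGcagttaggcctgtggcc
Hoxd10: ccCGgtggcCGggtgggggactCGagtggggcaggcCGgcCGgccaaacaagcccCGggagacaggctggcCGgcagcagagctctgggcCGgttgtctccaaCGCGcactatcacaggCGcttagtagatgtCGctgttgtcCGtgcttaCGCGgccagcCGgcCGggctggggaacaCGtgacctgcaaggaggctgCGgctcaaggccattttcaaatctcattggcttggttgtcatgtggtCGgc
Hoxd12: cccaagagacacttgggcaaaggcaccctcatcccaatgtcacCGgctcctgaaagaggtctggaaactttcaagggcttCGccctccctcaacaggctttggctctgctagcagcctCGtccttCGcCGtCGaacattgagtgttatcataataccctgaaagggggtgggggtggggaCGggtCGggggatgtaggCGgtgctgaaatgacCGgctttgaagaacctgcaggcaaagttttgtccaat
The 4 windows held 6, 13, 20 and 10 CpG sites in that order. Their genes stood at 14.6, 8.60, 0.430 and 0 FPKM on average. CpG number rose from Hoxd8 to Hoxd10 as the level fell, and was lower again at Hoxd12. A relation of CpG number to level was not tested. FPKM are the authors' deposited counts scaled by gene length and sequencing depth, and they are used wherever levels of different genes are compared.

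Promoter windows of 300 bases (250 before to 50 after the start) were on hand in RefSeq's GRCm38.p6 table for 22 of the 39 members, in 24 windows. Hox windows were richer in CpG than other promoters, with a median of 14.5 sites against 7.0 over all 32851 windows. The 8 windows of members that failed the filter on low counts had a median of 20 sites and the 16 windows of tested members one of 13.5. The CCAAT box (CCAAT, either strand) was found in 62.5% of Hox windows and 37.4% of all windows. The TATA box (TATAAA, either strand) was found in 16.7% and 13.6%. The composite site of Pbx and Hox proteins (TGATNNAT, either strand) occurred in 4 of the 24 Hox windows and 8.85% of all windows. These matches describe letters only.

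Members with paralogue numbers 5 to 8 carried most of the Hox signal, 64.2% ± 5.73 of the summed Hox FPKM (SD, n = 8 mice). Numbers 1 to 4 carried 16.3% ± 2.53 and numbers 9 and 10 carried 13.7% ± 2.06. Hoxc13 carried 5.67% ± 6.44, and the other 8 members with numbers 11 to 13 together carried 0.0798% ± 0.105. The last group took 28 of the 64197 Hox counts of all libraries. With Hoxc13 set aside, the clusters took like shares, 28.9% ± 2.08 for HoxD, 26.7% ± 1.75 for HoxA, 23.9% ± 2.84 for HoxC and 20.6% ± 3.92 for HoxB.

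**Figure D1:**
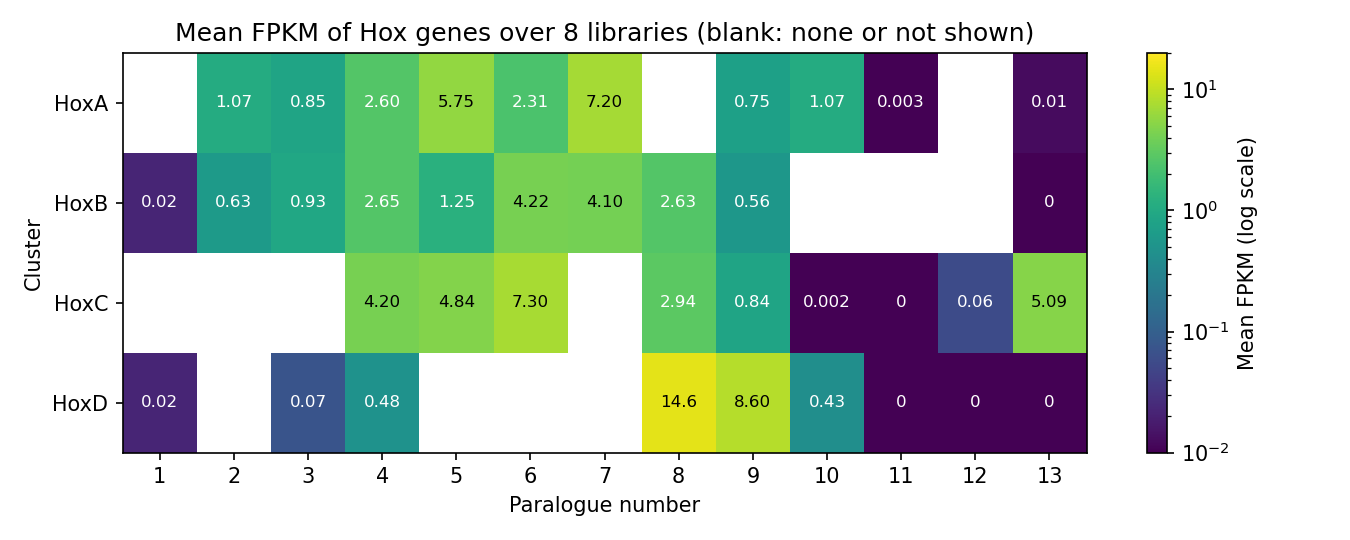
Mean deposited FPKM over 8 libraries for the Hox genes reported here, with clusters in rows and paralogue numbers in columns, on a log colour scale. Members numbered 4 to 9 stand between 0.478 and 14.6 FPKM, and those numbered 11 to 13 at 0.0575 FPKM or less, apart from Hoxc13 at 5.09 FPKM.

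The 5′ edge lay at number 10 in HoxA and HoxD and at number 9 in HoxB and HoxC. HoxB has no member between Hoxb9 and Hoxb13, so its edge cannot be placed more closely. In HoxA the last tested member was Hoxa10, at 1.07 FPKM, and Hoxa11 and Hoxa13 had 11 counts in all 8 libraries together. In HoxB it was Hoxb9 (0.564 FPKM), and Hoxb13, a gene of the tail end of the axis, had 0 counts. In HoxC, with Hoxc13 set aside, it was Hoxc9 (0.835 FPKM), and Hoxc10, Hoxc11 and Hoxc12 had 18 counts together. In HoxD it was Hoxd10 (0.430 FPKM), and Hoxd11, Hoxd12 and Hoxd13, which pattern limbs and digits, had 0 counts. A gene with 0 of 289847188 counts may still stand at up to 0.0104 CPM (counts scaled to library size), from counting error alone. At the 3′ end, Hoxb1, a gene of the hindbrain, and Hoxd1 were listed at 0.0220 and 0.0219 FPKM. In all, 11 members failed the filter, 5 of them with no count in any library and none with more than 8 counts in a library.

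Hoxd8 was the most abundant Hox transcript. It stood at 14.3, 15.4, 16.6, 11.5 and 12.7 FPKM among the wild-type mice and at 16.5, 15.6 and 14.2 FPKM among the NPY-tet mice, in replicate order. It ranked first among Hox genes in 7 of 8 libraries, and in wild-type replicate 5 it came second to Hoxc13. It was also the least variable tested member, with an SD of 12.2% of its mean. Its neighbour Hoxd9 followed at 8.60 ± 2.10 FPKM and lay below Hoxd8 in 8 of 8 libraries.

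The next members were not clearly ordered. Hoxc6 (7.30 ± 1.46 FPKM) lay above Hoxa7 (7.20 ± 2.73 FPKM) in 4 of 8 libraries, and Hoxa7 lay above Hoxa5 (5.75 ± 1.24 FPKM) in 6 of 8. Hoxa5 is known from lung and thoracic patterning, and Hoxc6 from thoracic identity. Below them came Hoxc5, Hoxb6, Hoxc4 and Hoxb7, between 4.84 and 4.10 FPKM on average. A second step that held in 8 of 8 libraries separated Hoxa6 (2.31 FPKM) from Hoxb5 (1.25 FPKM). A further one separated Hoxd10 from Hoxd3 (0.0716 FPKM). Of the 39 members, 18 had a mean of at least 1 FPKM.

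Several members overlap a neighbour in the annotation. The annotated span of Hoxc5 covers Hoxc6, Hoxc8 and Hoxc9 and part of Hoxc10, that of Hoxa3 covers Hoxa4, Hoxa5 and Hoxa6, and Hoxd3 and Hoxd4 overlap. Libraries were not directional, so reads from antisense genes cannot be told from those of the Hox genes they overlap. Such genes include Hotairm1, Hoxaas2, Hoxaas3, Hoxb3os, Hoxb5os, Hoxd3os1, Haglr and Gm11536. Hoxd3os1 overlaps Hoxd8, the most abundant member, as well as Hoxd3 and Hoxd4. Single values of all members with such overlaps are uncertain for that reason.

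Hoxc13 varied more between mice than any other tested member, with an SD of 116% of its mean FPKM. Counts scaled to effective library size by TMM factors (CPM) were 4.00, 1.42, 2.61, 3.30 and 41.2 among the wild-type mice and 17.6, 26.9 and 4.41 among the NPY-tet mice, in replicate order. Thus 1 wild-type and 2 NPY-tet mice were high, and the other 5 mice were low. Wild-type replicates 1 to 4 lay below every NPY-tet mouse, so the genotypes overlapped only through wild-type replicate 5. In wild-type replicate 5 it took 18.3% of the Hox FPKM, against 0.619% in wild-type replicate 2.

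The order of mice in Hoxc13 was close to that in the genes of the hair shaft. The hair shaft score is the mean log2 CPM of 14 genes, the hair keratins and the desmosomal cadherin Dsg4. It was 0.63, -2.54, -1.70, -2.33 and 6.00 among the wild-type mice and 3.89, 5.42 and 1.62 among the NPY-tet mice, in replicate order. The order from lowest to highest was the same for both measures, except that wild-type replicates 3 and 4 changed places. Because the mice fell into a set of 5 and a set of 3 by Hoxc13, with a gap of 2.00 on the log2 scale between them, no correlation was computed.

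The hair keratin gene Krt35 had a wider range still. Krt35, a keratin of the hair cortex and cuticle, stood at 8.50, 0.0506, 0.201, 0.540 and 178 CPM among the wild-type mice and at 58.3, 144 and 26.5 CPM among the NPY-tet mice, in replicate order. The mice high in Hoxc13 were also the highest in Krt35. Msx2, a transcription factor of the hair matrix, stood at 27.6, 10.8 and 29.3 CPM in these 3 mice (wild-type replicate 5, then NPY-tet replicates 1 and 2), against 2.46 to 6.40 CPM elsewhere. Foxn1, a matrix factor known to act downstream of Hoxc13, stood at 34.7, 14.3 and 21.2 CPM in the same mice and at 9.62 to 13.9 CPM in the others. Scores of the dermal papilla were also highest in these 3 mice (1.87 to 1.89, against 0.96 to 1.24), as were those of pigment cells (1.60 to 3.98, against -0.03 to 1.39). Fewer cells of a type and less RNA per cell cannot be told apart in whole tissue.

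**Figure D2:**
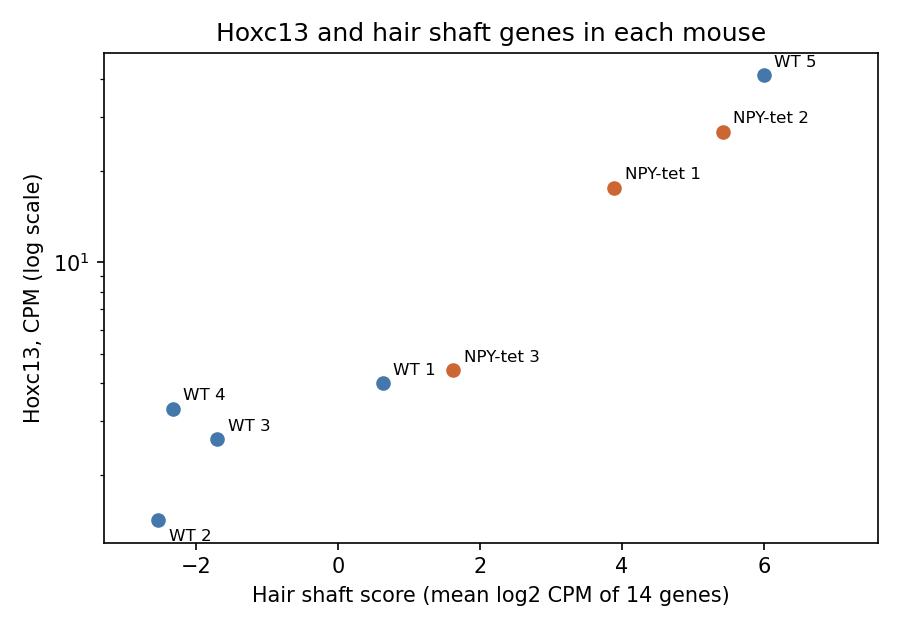
Hoxc13 in CPM (log axis) against the hair shaft score (mean log2 CPM of 14 genes), 1 point per mouse. The points of wild-type replicate 5, NPY-tet 1 and NPY-tet 2 stand at 17.6 to 41.2 CPM, and the other 5 mice at 1.42 to 4.41 CPM.

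The other members with high numbers were near 0 in every mouse, also where Hoxc13 was high. Hoxc12, next to Hoxc13, had 3, 1, 3, 0 and 0 counts among the wild-type mice and 8, 2 and 0 counts among the NPY-tet mice, in replicate order. Wild-type replicate 5, with 1231 counts of Hoxc13, had none of Hoxc12. Hoxa13 had at most 6 counts in a library, in NPY-tet replicate 1.

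Between genotypes, none of the 28 tested Hox genes passed. By edgeR's quasi-likelihood test, adjusted over 18495 genes, 0 members had an adjusted p under 0.05, where 0.00541% of all tested genes did, namely Npy alone. DESeq2 also called 0 members, with 0.369% of genes called. At an unadjusted p under 0.05 there was 1 member, Hoxd4, against 5.98% of all genes. None of the tested members had groups that did not overlap, against 3.78% of all genes (1.81% with NPY-tet above and 1.98% with NPY-tet below). The median log2 fold change of NPY-tet over wild-type was 0.12 over the 28 members, with 18 above 0, beside a median of 0.00 over all genes tested, of which 50.7% were above 0. Adjusted p-values of the members ranged from 0.743 to 0.994 by edgeR.

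**Figure D3:**
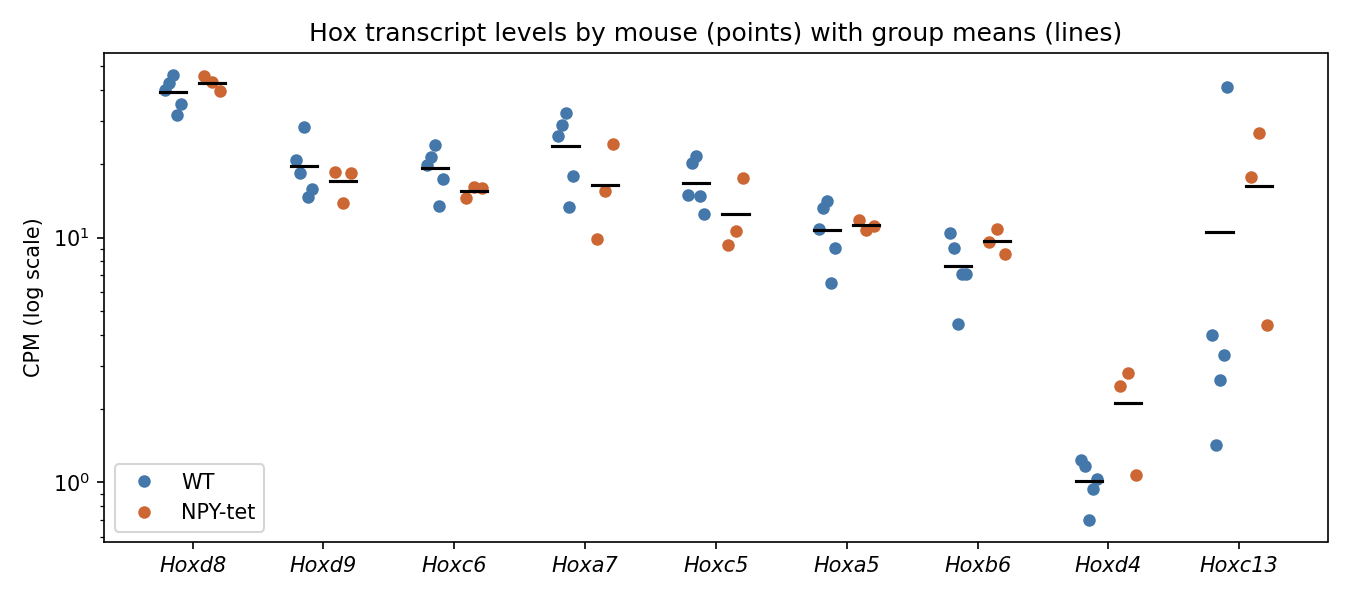
CPM (log axis) of the 8 most abundant Hox genes and of Hoxd4 in each of 5 wild-type and 3 NPY-tet mice, with lines at the group means. The groups overlap for all 9 genes, and Hoxc13 spans 1.42 to 41.2 CPM.

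Hoxd4, a 3′ gene of cervical identity, had the smallest p among the members. It stood at 1.24, 1.16, 0.704, 0.940 and 1.04 CPM among the wild-type mice and at 2.47, 2.79 and 1.07 CPM among the NPY-tet mice, in replicate order. The first 2 NPY-tet mice lay above every wild-type mouse, and the third lay among them. Its p was over 0.05 without NPY-tet replicate 1 (log2 fold change 0.93; adjusted p 1.00 by edgeR) or without NPY-tet replicate 2 (0.80; adjusted p 1.00). The log2 fold change was 1.05 (SE 0.36) with an adjusted p of 0.743 by edgeR. With the hair shaft score as a covariate it was 0.79 (SE 0.49), and in that fit 0 members had an unadjusted p under 0.05, against 3.70% of all genes. Within the libraries rich in ribosomal RNA it was 1.27 (SE 0.52) and within the poor ones 1.02 (SE 0.72), each resting on an arm of 1 mouse. The same 2 mice were high in Hoxc13, and Hoxd4 in wild-type replicate 5, the third mouse high in Hoxc13, was at the wild-type level.

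Of the other abundant members, Hoxd8 averaged 39.2 ± 5.73 CPM over 5 wild-type mice and 42.9 ± 3.16 CPM over 3 NPY-tet mice, a log2 fold change of 0.13 (SE 0.14). Hoxd9 stood at 19.6 ± 5.43 and 16.9 ± 2.69 CPM (-0.21, SE 0.21), and Hoxc6 at 19.2 ± 3.97 and 15.5 ± 0.878 CPM (-0.30, SE 0.18). Hoxa5 stood at 10.8 ± 3.09 and 11.2 ± 0.562 CPM (0.06, SE 0.23). Hoxc5 stood at 14.9, 20.1, 21.5, 14.8 and 12.4 CPM across wild-type and at 9.30, 10.6 and 17.6 CPM across NPY-tet mice (-0.42, SE 0.24), so NPY-tet replicates 1 and 2 lay below every wild-type mouse and replicate 3 among them. Its log2 fold change was -0.74 without NPY-tet replicate 3 (adjusted p 0.212 by edgeR) and -0.24 without NPY-tet replicate 1. Hoxb6 stood at 10.4, 9.06, 4.43, 7.08 and 7.09 CPM across wild-type and at 9.63, 10.9 and 8.59 CPM across NPY-tet mice (0.35, SE 0.24), and the low value belonged to wild-type replicate 3.

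Hoxa7, which acts in the thoracic region, stood at 26.1, 28.8, 32.3, 13.4 and 17.8 CPM across wild-type and at 9.89, 15.5 and 24.0 CPM across NPY-tet mice. The log2 fold change was -0.52 (SE 0.34; adjusted p 0.808 by edgeR). Within the libraries rich in ribosomal RNA it was -1.39 (SE 0.32; adjusted p 0.0664), set by NPY-tet replicate 1 alone, and within the poor ones it was 0.55 (SE 0.32). It was -0.89 without NPY-tet replicate 3 and -0.25 without NPY-tet replicate 1. The 2 lower wild-type mice were replicates 4 and 5. Hoxc13 had a log2 fold change of 0.64 (SE 1.28; adjusted p 0.934 by edgeR), which became 2.53 (SE 0.59; adjusted p 0.310) without wild-type replicate 5 and -0.41 (SE 0.34) with the hair shaft score as a covariate. Without NPY-tet replicate 2 it was 0.06 and without NPY-tet replicate 3 it was 1.08.

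By paralogue number, 9 of the 10 tested members numbered 1 to 4 had fitted values above 0, with a median log2 fold change of 0.38. Besides Hoxd4 the larger ones were Hoxd3 (0.61, SE 0.55), Hoxa2 (0.49, SE 0.38), Hoxb4 (0.47, SE 0.23) and Hoxb2 (0.45, SE 0.26), which act in the hindbrain and neck. Of the 11 members numbered 5 to 8, 5 were above 0 (median -0.02), and of the 6 numbered 9 and 10, 3 were (median -0.05). None of these passed, and the difference between number classes was not tested. The ratio of summed FPKM of numbers 1 to 4 over 5 to 10 was 0.199, 0.168, 0.160, 0.240 and 0.203 in wild-type and 0.281, 0.264 and 0.185 in NPY-tet mice. NPY-tet replicates 1 and 2 had the highest ratios, and NPY-tet replicate 3 lay within the wild-type range. The median of numbers 1 to 4 was 0.27 without NPY-tet replicate 1, 0.28 without replicate 2 and 0.49 without replicate 3, and 0.25 with the hair shaft score as a covariate. It was 0.44 within the libraries rich in ribosomal RNA and 0.33 within the poor ones. Within the poor ones the order of the classes was another, with a median of 0.37 for numbers 5 to 8 (9 of 11 above 0) and 0.85 for numbers 9 and 10, while 7 of 10 numbered 1 to 4 were above 0.

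**Figure D4:**
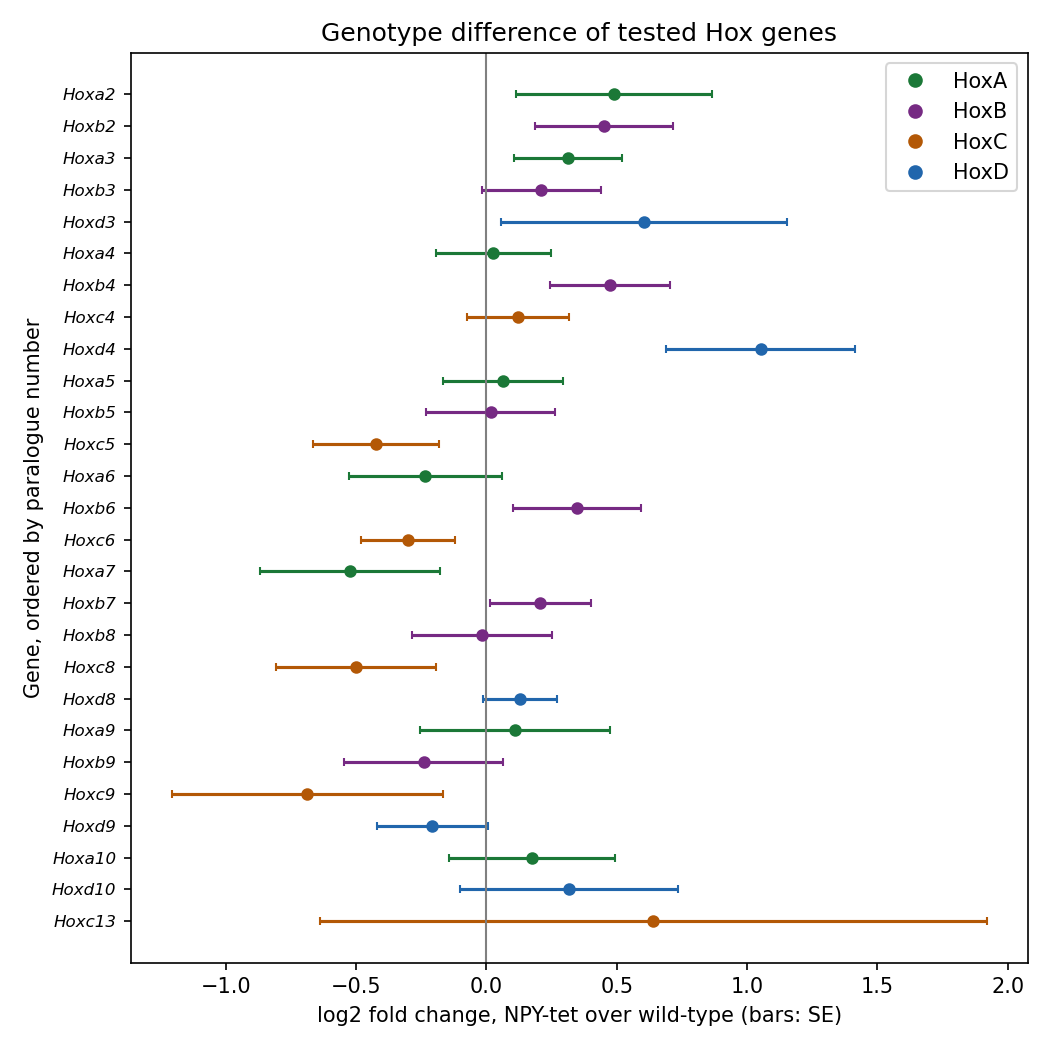
Log2 fold change of NPY-tet over wild-type with its SE for the tested Hox genes reported here, ordered by paralogue number and coloured by cluster. The 9 members shown with numbers 1 to 4 lie above 0, and no member passed the threshold.

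The HoxA cluster lies on the same chromosome as Npy and was compared with the other clusters for that reason. The median log2 fold change was 0.06 for HoxA (6 of 9 above 0), 0.21 for HoxB (6 of 8), 0.32 for HoxD (4 of 5) and -0.36 for HoxC (2 of 6). HoxA was nearest to 0 of the 4 here and in 16 of 21 alternatives. Its median was 0.34 with the set of ribosomal RNA as a covariate, 0.43 within the poor libraries and 0.27 with the muscle score as a covariate. Among 58 tested protein-coding genes that start within 5 Mb of the start of Npy, Hox genes left out, 0 passed and the median was -0.07. At an unadjusted p under 0.05 were 4 of them, all lower, where 3.55% of all genes were lower by that rule. These were the zinc finger gene Zfp467 (36.4 ± 3.84 and 26.1 ± 3.94 CPM), the sorting nexin gene Snx10 (18.4 ± 2.90 and 13.1 ± 0.896 CPM), Prr15 (0.681 ± 0.339 and 0.215 ± 0.0595 CPM) and the proton pump subunit gene Atp6v0e2 (35.6 ± 7.72 and 26.3 ± 5.26 CPM). Of these Snx10 lies between Npy and HoxA, and the groups overlapped for all 4. Evx1 and Evx2, the homeobox genes at the 5′ ends of HoxA and HoxD, had 0 counts in every library.

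**Figure D5:**
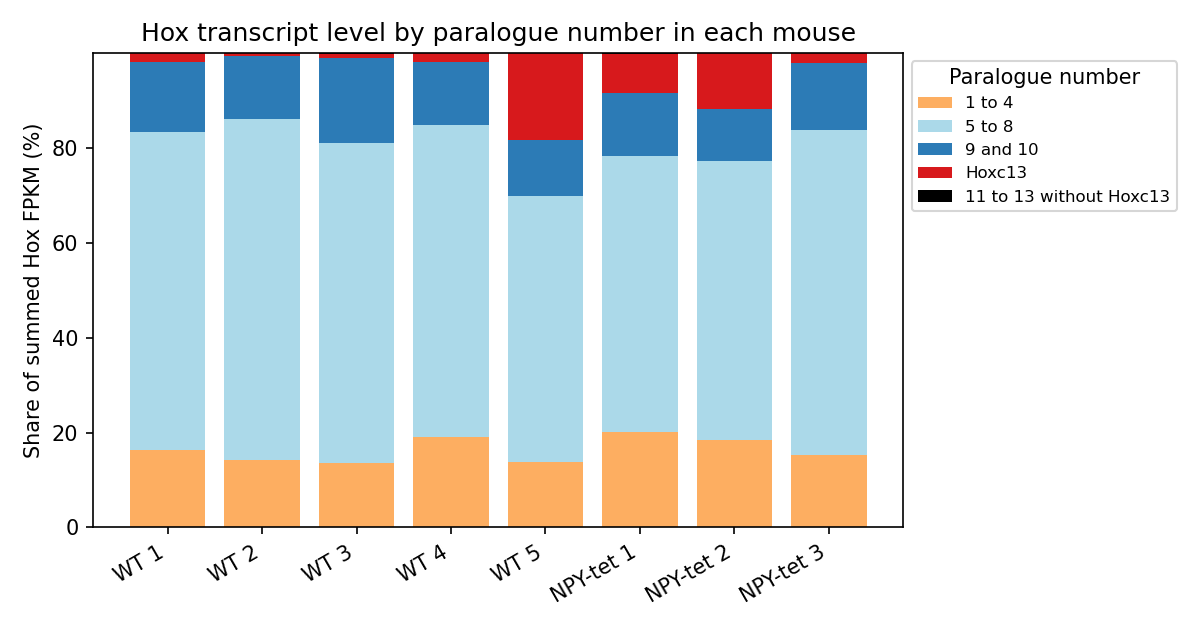
Share of the summed Hox FPKM (percent) taken by paralogue numbers 1 to 4, 5 to 8, 9 and 10, Hoxc13 and the other members numbered 11 to 13, in each mouse. Numbers 5 to 8 take 56.0% to 71.7% in every mouse, and Hoxc13 takes 0.619% to 18.3%.

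Noncoding rows inside the cluster bounds numbered 45, of which 14 passed the filter. The most abundant were Hotairm1 of HoxA (wild-type 2.92 ± 1.12 and NPY-tet 2.82 ± 0.922 CPM) and Hoxd3os1 (2.34 ± 0.642 and 2.53 ± 0.605 CPM). Hoxb5os stood at 1.47 ± 0.508 and 2.44 ± 1.03 CPM (log2 fold change 0.73, SE 0.37), and Gm53 at 1.30 ± 0.556 and 1.55 ± 0.635 CPM. None passed, and 1 of the 14 had an unadjusted p under 0.05, near the share of 5.98% among all genes. This was Hoxaas2, antisense to Hoxa3, at 0.476, 0.861, 0.168, 0.280 and 0.301 CPM across wild-type and 0.798, 2.41 and 0.634 CPM across NPY-tet mice (log2 fold change 1.60, SE 0.58; adjusted p 0.783 by edgeR). Its mean in NPY-tet mice was set mostly by replicate 2.

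The clusters also hold microRNA genes, whose products repress Hox mRNAs among others. Mature sequences from RefSeq (GRCm38.p6) are given 5′ to 3′ with the seed, bases 2 to 8, in capitals, to show that genes in different clusters share seeds.
miR-10a-5p (HoxB): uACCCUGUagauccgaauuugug
miR-10b-5p (HoxD): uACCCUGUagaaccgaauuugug
miR-196a-5p (HoxB and HoxC): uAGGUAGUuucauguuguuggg
miR-196b-5p (HoxA): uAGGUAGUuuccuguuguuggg
Poly-A selected libraries do not measure mature microRNAs, and the counts refer to longer transcripts over the hairpins. Mir196a-1 in HoxB had 11, 18, 0, 9 and 9 counts in wild-type and 5, 8 and 11 counts in NPY-tet libraries, so wild-type replicate 3 alone had none. Mir10a had 3, 3, 0, 4 and 0 counts in wild-type and 6, 4 and 7 counts in NPY-tet libraries, and it failed the filter on low counts. In CPM its lowest NPY-tet value (0.108) lay above its highest wild-type value (0.0951), a pattern that 1.81% of tested genes had. Mir10b, Mir196a-2 and Mir196b had 0 counts in all libraries.

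Partners and regulators of Hox proteins showed no called change either. Hox proteins bind DNA together with the TALE homeodomain factors of the Pbx, Meis and Pknox families. All 9 were tested and 0 passed, 4 above and 5 below 0, with a median of -0.03. By FPKM the most abundant was Pbx2 (9.92 ± 0.353), above every Hox gene except Hoxd8. Meis2 stood at 5.97 ± 0.873 and 7.58 ± 1.21 CPM and Meis1 at 10.6 ± 1.72 and 12.9 ± 0.478 CPM in wild-type and NPY-tet mice. Of the 23 Polycomb genes, which keep Hox genes silent, 0 passed (median 0.07). Among them Eed stood at 16.7 ± 1.21 and 20.4 ± 2.62 CPM and Rnf2 at 22.6 ± 1.5 and 26.9 ± 5.18 CPM. Of the 11 Trithorax and demethylase genes, which keep them active, 0 passed (median 0.02), with Rbbp5 at 37.9 ± 2.32 and 33.7 ± 2.85 CPM and Kmt2b at 94.4 ± 19.4 and 110 ± 7.11 CPM.

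Retinoic acid is known to induce 3′ Hox genes. Of the 16 tested genes for its synthesis, breakdown and reception, 0 passed and 2 were higher at an unadjusted p under 0.05, where 2.43% of all genes were. One reported here was Rdh10, a retinol dehydrogenase (11.9 ± 0.917 and 15.3 ± 1.56 CPM; adjusted p 0.791 by edgeR). The lowest NPY-tet value of Rdh10 exceeded the highest wild-type value, a pattern that 1.81% of all genes had. Cyp26b1, which degrades retinoic acid, stood at 90.9 ± 19.0 and 137 ± 68.4 CPM, with a log2 fold change of 0.59 (SE 0.28).

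Among 22 other transcription factors tied to body position, 16 were tested and 0 passed (median -0.12, 4 above and 12 below 0). The most abundant was Tbx15, a factor of dorsal dermis, at 25.9 ± 9.60 FPKM, above every Hox gene. The limb factors Tbx5 (0.976 ± 0.352 and 0.519 ± 0.303 CPM) and Tbx4 (2.22 ± 0.950 and 1.42 ± 0.397 CPM) were low in both groups. Alx4 stood at 1.54 ± 0.749 and 2.64 ± 0.874 CPM and Shox2 at 4.84 ± 1.10 and 6.23 ± 1.01 CPM. Markers of the facial skeleton and branchial arches were near the limit, with Alx1 at 0.0039 FPKM and Barx1 at 0.00817 FPKM.

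Tissue makeup differed between mice beside these values. The fibroblast score (10 genes) was 8.17 to 8.62 in wild-type mice and 7.03, 8.51 and 8.60 in NPY-tet replicates 1 to 3, and all 10 genes were detected. The skeletal muscle score (10 genes) was 10.9 to 12.3 and 10.8 to 11.7. NPY-tet replicate 1, low in fibroblast genes and lowest in muscle genes, had the lowest values of Hoxa7, Hoxc5, Hoxc8 and Hoxc9 and the highest of Hoxb2, Hoxb3 and Hoxb4. With the muscle score as a covariate, log2 fold changes moved to -0.24 for Hoxa7 (SE 0.21), -0.30 for Hoxc5 (SE 0.22), -0.18 for Hoxc8 (SE 0.21) and -0.25 for Hoxc9 (SE 0.39), while Hoxb2 was at 0.36 and Hoxb4 at 0.34. In that fit Hoxa10 was at 0.52 (SE 0.23; adjusted p 0.988 by edgeR), against 0.18 without the covariate. The fibroblast score was not used as a covariate, and its part in these values was not tested.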

How the data were processed

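RNA of whole skin from 5 wild-type and 3 NPY-tet mice was sequenced from poly-A selected, non-directional libraries, per the labels' protocols. The authors' deposited table holds raw counts per gene and, beside them, FPKM (counts scaled by gene length and depth). Per the submitters' processing notes, the build was mm39, reads were handled with featureCounts 1.5.0-p3 and HISAT2 2.0.5, and CASAVA and DESeq2 1.20.0 are also listed. Counts were fitted with edgeR 4.0.16 (R 4.3.3; filterByExpr, TMM factors, robust quasi-likelihood test, two-sided, genotype only) over 18495 genes, with Benjamini-Hochberg adjustment and a threshold of 0.05. DESeq2 1.42.0 and limma 3.58.1 gave alternatives. The fit was tested on simulated data. CPM are counts scaled to the TMM-adjusted library size. Scores are means of log2 CPM with a prior count of 2. Intervals and limits from a count of 0 (3 counts) cover counting error only. The ribosomal RNA sets were divided at 1% of the counts.

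Genes were named by rule: Hox genes among the 8 highest by mean FPKM, Hoxc13, those with an unadjusted p under 0.05 or without overlap, the highest of each cluster, up to 4 genes with the smallest p from each further list and from the genes within 5 Mb of Npy, and the 4 most abundant noncoding genes. Other Hox genes are given by level or fold. Hoxaas2, Tbx15, Pbx2, Alx1, Barx1, Krt35, Msx2, Foxn1, Tmem176a and Tmem176b fall outside that rule and were picked with their values in view. A Hox gene and a gene of another list are counted but not reported here. The members and lists were chosen with earlier results of these data known. Promoter and microRNA sequences come from RefSeq tables of GRCm38.p6, and no coordinates were converted between builds.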

Additional observations from a re-analysis of the deposited data

Results flagged for a closer look

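Of 59 sets of wild-type values checked, 4 held a mouse far from the other 4 by Dixon's test. For normally distributed values chance gives about 1 in 20, and the sets here were not independent. Hoxc13 stood at 41.2 CPM in wild-type replicate 5, against 1.42 to 4.00 CPM in the others. Its share of the Hox FPKM was 18.3% there, against 0.619% to 1.94%. Alx4, a factor of limb and skull patterning, was at 2.88 CPM in 1 wild-type mouse and at 1.14 to 1.27 CPM in the others. Rdh10 was low at 10.3 CPM in wild-type replicate 3, against 12.0 to 12.5 CPM.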

How the results depend on the processing

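Across 21 alternatives the number of Hox genes past the threshold stayed at 0, and the smallest adjusted p of any of them was 0.0664 (Hoxa7 in the libraries rich in ribosomal RNA, edgeR). The number at an unadjusted p under 0.05 ranged from 0 to 9. The share of all genes under 0.05 also varied between alternatives, from 3.3% without NPY-tet replicate 1 to 13.7% without NPY-tet replicate 3. The median log2 fold change of tested Hox genes (0.12) was between 0.04 and 0.18 with each mouse left out in turn. It was 0.40 in the libraries poor in ribosomal RNA alone, where 1 wild-type mouse stood against 2 NPY-tet mice. In that subset Tmem176b (-1.15) and Tmem176a (-1.09), 2 genes near Npy, were lower in NPY-tet mice, which rests on that 1 wild-type mouse. There 10 of the 28 Hox genes changed sign. Of these, Hoxc9 was at 1.2, Hoxb8 0.58, Hoxa7 0.55, Hoxc8 0.44, Hoxa6 0.30, Hoxc6 0.24 and Hoxd9 0.12. The rest were Hoxb3 at -0.06, Hoxa4 at -0.24 and Hoxb5 at -0.30. Of the named companion genes, Tbx4 (0.45) and Shox2 (-0.033) changed sign too. The HoxC median was 0.53 there, and below 0 under the other 20 alternatives. Hoxc13 was at -0.41 with the hair shaft score as a covariate, and Hoxa5 at -0.068 without wild-type replicate 4. Cyp26b1 was at 1.28 in the libraries rich in ribosomal RNA, where the NPY-tet arm was replicate 1 alone. The cause of these shifts was not tested.

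With the replicate block, the Hox median was -0.033, the HoxA median was -0.17, Hoxd8 was at -0.0039, Hoxa5 was at -0.17, 5 of 28 Hox genes changed sign, and 9 had an unadjusted p under 0.05, where 11% of all genes did. Replicate numbers 4 and 5 occur only in wild-type, so in that fit the mice with these numbers add nothing to the genotype difference. Deviations of same-numbered mice had correlations of -0.04, -0.11 and 0.30, so the numbers were not taken as pairs. Over all alternatives, 38 of 586 fold changes of tested Hox genes changed sign. Among 27 genes named by rule or beside it, 554 fold changes kept their direction and side of the threshold, 9 changed sign and 1 came to pass. The planned correlation of Hoxc13 with the hair shaft score and its alternatives gave no value, because the mice fell into separate sets by Hoxc13. The 3 NPY-tet mice limit what could be detected.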

Other observations

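Extreme values were spread unevenly over the mice. Over the 27 tested Hox genes other than Hoxc13, wild-type replicate 3 held the highest value in 10 and the lowest in 5, and wild-type replicate 4 the highest in 1 and the lowest in 7. In wild-type replicate 3 the HoxB genes took 12.6% of the Hox FPKM without Hoxc13, the lowest share of any mouse.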
